A study of Homo sapiens with 15 samples.

Results

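The genes described here are the small MAF factors MAFF, MAFG and MAFK, their bZIP partners BACH1, BACH2 and NFE2, and the large factor MAF. They were taken by gene symbol, with earlier results of these data known. They are 7 of the 26485 genes in a table of RNA-seq read counts from the human acute myeloid leukemia cell lines U937 and ML1. The groups were U937 with 10 nM prexasertib plus 350 nM LSN622666, U937 with 10 nM prexasertib, U937 with diluent, ML1 with 10 nM prexasertib and ML1 with diluent, each with 3 libraries. Prexasertib inhibits the checkpoint kinase CHK1, and LSN622666 is known here only by its code name. Cells were treated for 24 h, with 5 µM Q-VD-OPh, which inhibits caspases broadly, in every group including diluent. The series asked which candidate transcription factors of the TNF gene change in mRNA under these treatments. Among the samples analysed here none had LSN622666 alone, and no ML1 sample had the combination.

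Small MAF proteins carry a bZIP dimerization and DNA-binding region but no transactivation domain. As homodimers they repress, and paired with a cap'n'collar (CNC) protein such as NRF2 or NFE2 they activate genes through MAF recognition and antioxidant response elements. BACH1 and BACH2 also pair with small MAFs and repress many of the same elements, and heme binding releases BACH1 from DNA. In blood, NFE2 with a small MAF drives globin and platelet genes, BACH2 restrains plasma cell and myeloid programmes, and large MAFs act in macrophages and lymphocytes.

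In the GENCODE v29 annotation of GRCh38, MAFF lay on chromosome 22 (38200767 to 38216511, plus strand), MAFG on chromosome 17 (81918270 to 81927714, minus) and MAFK on chromosome 7 (1530714 to 1543043, plus). BACH1 lay on chromosome 21 (29194071 to 29630751, plus), BACH2 on chromosome 6 (89926529 to 90296908, minus), NFE2 on chromosome 12 (54292111 to 54301121, minus) and MAF on chromosome 16 (79585843 to 79600714, minus). The library kit does not mark strand. Exons of TMEM184A, on the opposite strand, covered 809 bases or 24.0% of the longest coding MAFK transcript, so reads from these 2 genes cannot be told apart there. For MAFG the largest such overlap was 224 bases (4.44%) and for BACH2 396 bases (4.35%).

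Promoter sequences were available for 5 of the 7 genes, as 8 windows from 250 bases before to 50 bases after an annotated start (RefSeq, GRCh38.p14). They are shown for 4 genes whose mRNA was higher with prexasertib in U937, 5′ to 3′ on the gene's strand, with matches to 4 motifs in capitals. The motifs, searched on both strands, were the cyclic AMP response element TGACGTCA, the AP-1 element TGANTCA that also forms the core of the NF-E2 site, the antioxidant response element core TGACNNNGC, and the E-box CACGTG.
MAFF, chr22:38201744-38202043, plus strand: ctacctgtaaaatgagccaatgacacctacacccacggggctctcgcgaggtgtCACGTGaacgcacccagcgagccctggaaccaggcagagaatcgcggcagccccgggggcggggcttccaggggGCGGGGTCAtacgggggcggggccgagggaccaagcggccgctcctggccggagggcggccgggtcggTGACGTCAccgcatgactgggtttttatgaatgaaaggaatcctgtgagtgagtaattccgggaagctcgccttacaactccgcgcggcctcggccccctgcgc
BACH2, chr6:90296794-90297093, minus strand: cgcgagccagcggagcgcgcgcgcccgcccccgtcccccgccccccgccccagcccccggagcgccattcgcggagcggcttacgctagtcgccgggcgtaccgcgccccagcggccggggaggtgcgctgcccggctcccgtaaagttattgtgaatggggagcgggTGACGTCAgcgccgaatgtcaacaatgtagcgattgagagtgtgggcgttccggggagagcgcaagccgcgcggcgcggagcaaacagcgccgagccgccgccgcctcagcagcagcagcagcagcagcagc
BACH1, chr21:29298672-29298971, plus strand: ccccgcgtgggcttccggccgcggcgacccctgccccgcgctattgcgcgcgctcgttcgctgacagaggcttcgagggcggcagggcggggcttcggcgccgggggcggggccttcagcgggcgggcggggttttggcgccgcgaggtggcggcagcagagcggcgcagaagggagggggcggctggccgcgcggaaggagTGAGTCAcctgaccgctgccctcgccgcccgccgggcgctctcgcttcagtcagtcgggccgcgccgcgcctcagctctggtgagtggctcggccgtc
MAFG, chr17:81927686-81927985, minus strand: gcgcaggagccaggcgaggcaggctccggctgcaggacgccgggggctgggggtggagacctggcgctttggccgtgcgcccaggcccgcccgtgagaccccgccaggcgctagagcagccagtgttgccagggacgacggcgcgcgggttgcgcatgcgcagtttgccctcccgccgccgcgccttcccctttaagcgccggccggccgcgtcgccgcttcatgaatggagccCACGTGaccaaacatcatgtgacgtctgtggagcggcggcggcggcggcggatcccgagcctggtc
The MAFF window held TGACGTCA at position -54 from the start, an antioxidant response element core on the other strand (GCGGGGTCA as printed) at -122 and CACGTG at -196. TGACGTCA also stood at -82 in the BACH2 window and at -45 in that of MAF (not shown), so windows of 3 genes held it, against 649 of 35116 promoters of the same length (1.85%). The BACH1 window had TGAGTCA at -48, and AP-1 elements occurred in 7.71% of all promoters; the other 2 BACH1 starts had no match. The MAFG window had CACGTG at -16 and a further MAFF start had it at -81, against 7.26% of all promoters, while the antioxidant core occurred in 13.3%. These are matches of letters and were not tested for binding.

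Library totals ran from 49011222 to 87301014 counts, and within groups the libraries correlated at 0.982 to 0.9937 on the log2 scale of CPM, counts-per-million with libraries scaled by TMM. U937 with prexasertib replicate 2 had the most genes with a count (21023, against 17419 to 20220 in the other libraries). Without it the genes called higher and lower with prexasertib in U937 numbered 1805 and 956, in place of 3160 and 2209. Myeloid markers were present in both lines (summed level of 11 markers 1160 to 7830 CPM), whereas the 4 T cell markers in the file summed to at most 0.137 CPM and 13 erythroid and megakaryocyte markers to at most 11.8 CPM. Bulk RNA cannot tell a smaller share of cells with a transcript from less of it per cell. Values below are means ± SD over 3 libraries, and adjusted p-values come from the quasi-likelihood test of edgeR, Benjamini-Hochberg adjusted over 17243 tested genes. MAF did not pass the filter on low counts, so 6 of the 7 genes were tested. Nothing in the labels says that replicates were separate cultures, and the spread behind the p-values may be technical.

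With prexasertib in U937, 4 of the 6 tested genes rose (MAFF, MAFG, BACH1 and BACH2) and none fell, where 18.3% of all tested genes were called higher and 12.8% lower. Their median log2 fold change was 0.66, against -0.0012 over all tested genes. In ML1, of the 5 tested genes with a count in both groups, 4 rose (MAFF, MAFG, MAFK and BACH1) and NFE2 fell, with a background of 25.3% called higher and 23.5% lower. Their median there was 0.92, against 0.02 over all tested genes. BACH2, which passed the filter through its U937 counts, also had an adjusted p under 0.05 in ML1, but on 4 counts against 0, and is not counted. Adding LSN622666 in U937 lowered the 4 genes that prexasertib had raised there and no gene of the 6 was called higher, where 17.1% of all tested genes were called lower and 11.9% higher. The median was -0.72, against 0.01 over all tested genes. The comparisons with prexasertib in U937 share the prexasertib libraries, so they are not independent of each other.

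**Figure D1:**
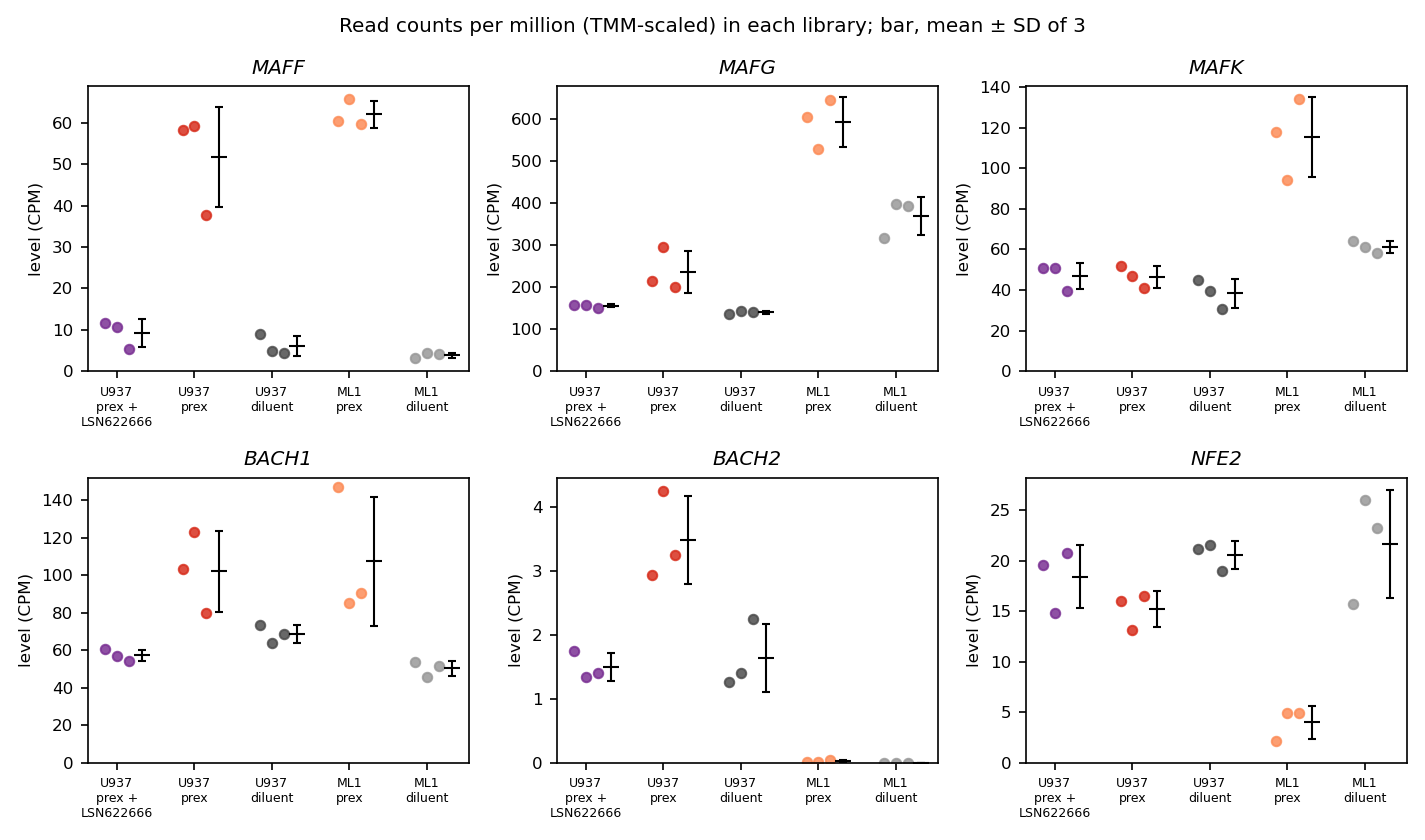
Level of 6 genes in each of 15 libraries, in CPM (TMM-scaled, linear axis from 0), with the mean and SD of each group of 3 beside its points. MAFF is at 37.7 to 65.7 CPM in the 6 libraries with prexasertib alone and at 3.21 to 11.7 CPM in the other 9, and NFE2 is lowest in ML1 with prexasertib.

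MAFF, the small MAF whose gene is known to be induced by stress and inflammatory signals, had the largest fold change in each line among the members with counts in both groups. In U937 its levels were 58.1, 59.1 and 37.7 CPM with prexasertib, against 8.90, 4.95 and 4.32 CPM with diluent. In ML1 they were 60.5, 65.7 and 59.8 CPM with prexasertib, against 3.21, 4.38 and 4.05 CPM with diluent. The groups did not overlap in either line. All ML1 libraries with prexasertib lay above the U937 ones, a difference that was not tested. The log2 fold change was 3.08 ± 0.29 (SE) in U937 (adjusted p = 2.41e-06) and 4.0 ± 0.31 in ML1 (adjusted p = 9.89e-09). The difference of these effects, ML1 minus U937, was 0.91 ± 0.39, which did not pass the test (adjusted p = 0.1). It passed in 2 of the alternatives, one of them a fit to those 4 groups alone (adjusted p = 0.0492).

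With LSN622666 added to prexasertib in U937, MAFF stood at 11.7, 10.7 and 5.28 CPM. All 3 libraries were below every library with prexasertib alone, and the log2 fold change of the combination over prexasertib was -2.49 ± 0.28 (adjusted p = 1.97e-05). Against diluent, the combination libraries of MAFF overlapped the controls, with a log2 fold change of 0.60 ± 0.28 (95% interval 0.01 to 1.18, adjusted p = 0.168). Without diluent replicate 1, the highest control, that value was 0.97 (adjusted p = 0.0367), and without combination replicate 3 it was 0.88 (adjusted p = 0.0412).

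MAFG, the small MAF with the highest level, averaged 236 ± 50.5 CPM in U937 with prexasertib and 140 ± 3.67 CPM with diluent. Its treated libraries read 214, 294 and 201 CPM and its controls 137, 144 and 140 CPM. In ML1 MAFG read 605, 528 and 645 CPM with prexasertib, against 318, 398 and 393 CPM with diluent. No treated library overlapped a control. MAFG rose by a log2 fold change of 0.75 ± 0.14 in U937 (adjusted p = 0.000891) and 0.68 ± 0.14 in ML1 (adjusted p = 0.000509), and the difference between the lines was -0.07 ± 0.19 (adjusted p = 0.848). The combination libraries held 158, 157 and 151 CPM of MAFG. They lay below the prexasertib libraries, with a log2 fold change of -0.60 ± 0.14 (adjusted p = 0.00379), and just above the diluent ones, with 0.15 ± 0.14 (adjusted p = 0.505).

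MAFK, the third small MAF, rose in ML1 and was not called in U937, and the difference between the lines was itself past the threshold. In ML1 it read 118, 94.4 and 134 CPM with prexasertib, against 64.1, 61.1 and 58.1 CPM with diluent, with no overlap. In U937 it read 51.8, 46.7 and 41.1 CPM with prexasertib, against 44.8, 39.3 and 30.9 CPM with diluent, and the groups overlapped. The log2 fold change was 0.92 ± 0.15 in ML1 (adjusted p = 8.05e-05) and 0.28 ± 0.15 in U937 (95% interval -0.04 to 0.60, adjusted p = 0.173), which passed in 1 alternative. The ML1 effect minus the U937 effect was 0.64 ± 0.22 (adjusted p = 0.0377). That difference lost its call when any of 8 of the 12 libraries was left out, with adjusted p-values up to 0.107, and with upper-quartile scaling (adjusted p = 0.0501). The combination libraries of MAFK averaged 47.0 ± 6.36 CPM and differed from prexasertib by 0.01 ± 0.15 (adjusted p = 0.955).

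Per kb of the longest coding transcript, MAFF, MAFG and MAFK together averaged 81.4 ± 14.4 CPM per kb in U937 with prexasertib and 41.7 ± 2.74 with diluent. In ML1 the sum was 177 ± 16.4 with prexasertib and 93.0 ± 8.46 with diluent. MAFF made up 25.4 ± 3.18% of it in U937 with prexasertib and 5.77 ± 2.04% with diluent. The combination gave a MAFF share of 7.5 ± 2.33%, overlapping the diluent libraries. In ML1 the MAFF share was 14.2 ± 2.11% with prexasertib and 1.67 ± 0.116% with diluent. MAFG held 66.5 ± 0.598% of the small MAF level in ML1 with prexasertib and 78.7 ± 2.65% with diluent. These shares depend on the assumed length: with the union of exons as the length, the MAFF share averaged 14.1% in U937 with prexasertib and 2.93% with diluent, and 7.41% in ML1 with prexasertib and 0.808% in ML1 with diluent. They are descriptions and were not tested.

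**Figure D2:**
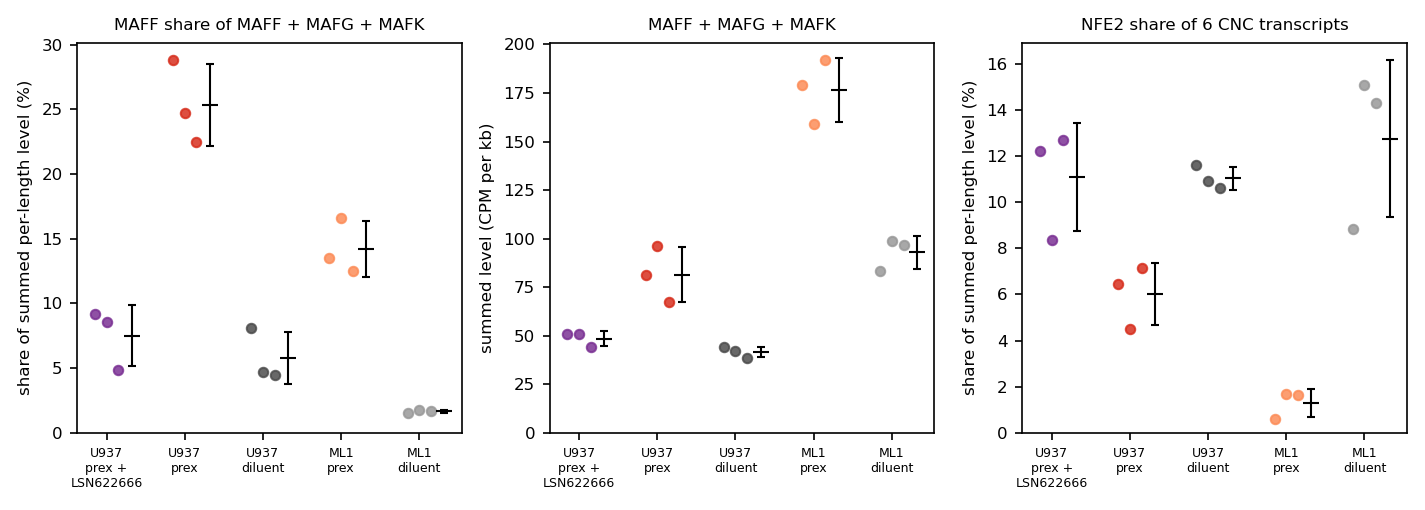
Make-up of the small MAF and CNC transcripts by library, per kb of the longest coding transcript, with the mean and SD of 3 libraries. The panels show the MAFF share of MAFF, MAFG and MAFK (%), their sum (CPM per kb) and the NFE2 share of NFE2, NFE2L1, NFE2L2, NFE2L3, BACH1 and BACH2 (%); the MAFF share is 22.5 to 28.8% in U937 with prexasertib and 4.49 to 8.12% with diluent.

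BACH1, the heme-regulated repressor of antioxidant and iron genes, rose in both lines, less firmly in U937. Its U937 levels were 103, 123 and 80.0 CPM with prexasertib, against 73.8, 63.9 and 68.6 CPM with diluent. Its ML1 levels were 147, 85.1 and 90.5 CPM with prexasertib, against 53.7, 46.0 and 51.7 CPM with diluent. Neither pair of groups overlapped, and in ML1 prexasertib replicate 1 stood well above the other treated libraries. The log2 fold change of BACH1 was 0.57 ± 0.18 in U937 (adjusted p = 0.0233) and 1.09 ± 0.18 in ML1 (adjusted p = 7.25e-05), with a difference between the lines of 0.52 ± 0.25 (adjusted p = 0.147, or 0.0479 without U937 prexasertib replicate 2). The U937 call ended without prexasertib replicate 2 (0.38, adjusted p = 0.162), prexasertib replicate 1 (0.53, adjusted p = 0.054), diluent replicate 2 (0.52, adjusted p = 0.0769) or diluent replicate 3 (0.57, adjusted p = 0.0644). With the combination BACH1 read 60.6, 57.1 and 54.5 CPM, below every prexasertib and every diluent library. The log2 fold change was -0.83 ± 0.18 against prexasertib (adjusted p = 0.00253) and -0.26 ± 0.18 against diluent (adjusted p = 0.350).

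BACH2, a lymphoid-enriched repressor related to BACH1, was low in U937 and close to absent from the ML1 counts. In U937 it had 199, 279 and 216 counts with prexasertib (2.93, 4.25 and 3.25 CPM), against 88, 78 and 105 counts with diluent (1.26, 1.4 and 2.25 CPM). The combination gave 117, 98 and 115 counts (1.75, 1.34 and 1.4 CPM), all below the prexasertib libraries and within the range of the diluent ones. BACH2 rose with prexasertib in U937 by 1.09 ± 0.29 on the log2 scale (adjusted p = 0.0117) and fell with the combination relative to prexasertib, with -1.22 ± 0.29 (adjusted p = 0.0061). The first call ended without prexasertib replicate 2 (0.89, adjusted p = 0.0687) or diluent replicate 1 (0.91, adjusted p = 0.0502). In ML1, BACH2 had 1, 1 and 2 counts with prexasertib and 0 in all 3 diluent libraries. These counts are too few to read a difference from, as 3 counts over the diluent group are the floor (0.015 CPM).

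NFE2, the haematopoietic CNC subunit, was the member called lower with prexasertib in ML1. There it read 2.12, 4.97 and 4.93 CPM with prexasertib, against 15.7, 26 and 23.3 CPM with diluent. In U937 it read 16.0, 13.2 and 16.5 CPM with prexasertib, against 21.2, 21.6 and 19.0 CPM with diluent. Both pairs of groups were apart, but the U937 gap was small. The log2 fold change was -2.44 ± 0.26 in ML1 (adjusted p = 6.46e-07) and -0.44 ± 0.25 in U937 (95% interval -0.96 to 0.08, adjusted p = 0.185). The ML1 effect minus the U937 effect was -2.0 ± 0.36 (adjusted p = 0.000431), a difference that every alternative run kept (range -2.22 to -1.69). The combination libraries held 19.6, 14.9 and 20.8 CPM of NFE2 and overlapped both other U937 groups. Their difference from prexasertib was 0.27 ± 0.25 (adjusted p = 0.426).

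MAF, the large factor of macrophages and T helper cells, had 12 counts over all 15 libraries. They comprised 4, 2 and 0 counts in ML1 with prexasertib and 2, 4 and 0 counts in U937 with prexasertib. The 9 other libraries had no MAF count, and 3 counts over a group of 3 libraries correspond to 0.0135 to 0.0177 CPM. MAF was therefore at or near the detection limit in every group and its level was not compared.

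**Figure D3:**
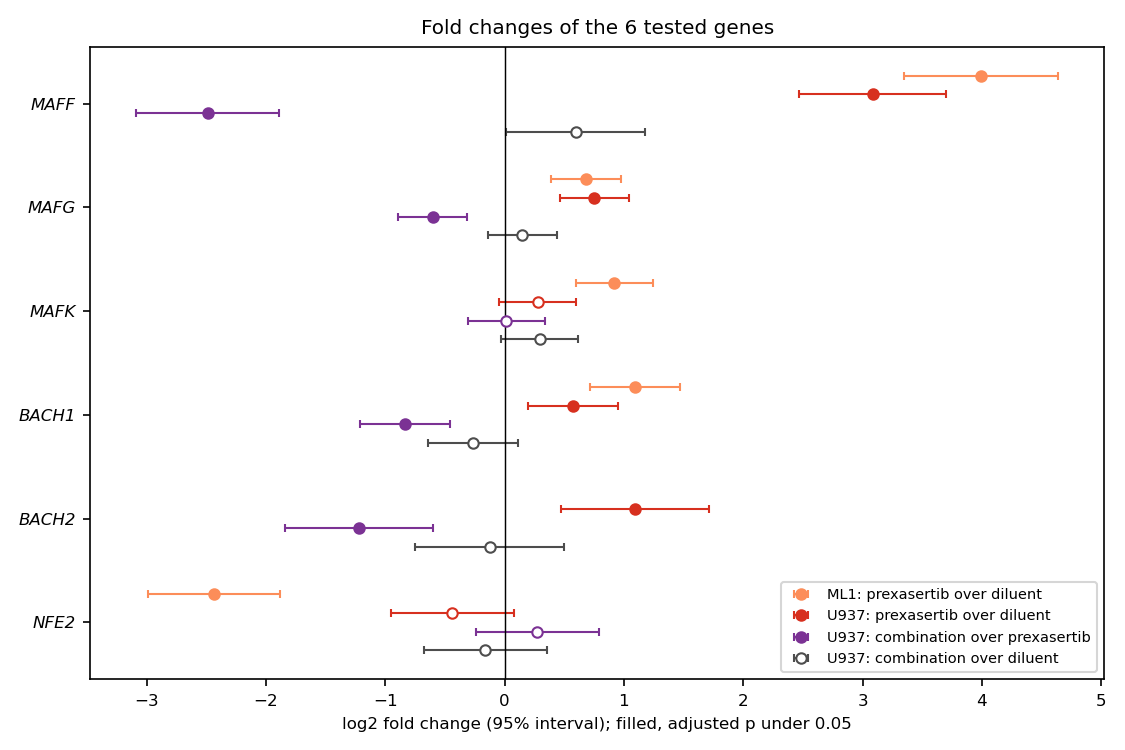
Log2 fold changes of the 6 tested genes with 95% intervals from edgeR in 4 comparisons, filled where the adjusted p was under 0.05; BACH2 has no ML1 point because ML1 with diluent had no BACH2 count. MAFF, MAFG, BACH1 and BACH2 lie right of 0 for prexasertib over diluent in U937 and left of 0 for the combination over prexasertib, and NFE2 lies left of 0 at -2.44 in ML1.

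None of the 6 tested genes was called in the combination against diluent in U937, where 6.88% of all tested genes were called higher and 4.11% lower. By edgeR 1 of them, MAFF, had an unadjusted p under 0.05 (0.0463), and DESeq2 called 0 of them. The values ran from -0.26 for BACH1 to 0.60 for MAFF. Their 95% intervals do not exclude a change: that of MAFK ran from -0.03 to 0.62 and that of NFE2 from -0.68 to 0.35. When the prexasertib effects of ML1 and U937 were compared, 1 gene was called higher in ML1 (MAFK) and 1 lower (NFE2), with 12.3% of all tested genes called higher and 12.4% lower.

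Without prexasertib the lines differed in BACH1, MAFG and MAFK among the tested genes with a count in both diluent groups. With diluent in both lines, BACH1 was called higher in U937 than in ML1, and MAFG and MAFK lower. The background was 32% of all tested genes called higher and 29.4% lower. BACH2 was also called higher, but it passed the filter through its U937 counts and is not counted. MAFG averaged 140 ± 3.67 CPM in U937 and 370 ± 45.1 CPM in ML1, a log2 fold change of -1.4 ± 0.14 (adjusted p = 1.09e-07). MAFK averaged 38.3 ± 7.01 CPM in U937 and 61.1 ± 2.97 CPM in ML1 (-0.67 ± 0.15, adjusted p = 0.00098). BACH2 had 271 counts over the U937 diluent libraries and 0 over those of ML1, at least 105-fold higher in U937 against that floor. BACH1 averaged 68.8 ± 4.91 CPM in U937 and 50.5 ± 3.98 CPM in ML1, with 0.45 ± 0.18 (adjusted p = 0.0383). The BACH1 call ended in 7 of 13 alternatives, with adjusted p-values up to 0.124. MAFF (0.65 ± 0.28, adjusted p = 0.057) and NFE2 (-0.07 ± 0.25, adjusted p = 0.820) were not called. MAFF passed in 4 of 13 alternatives, among them without U937 diluent replicate 2 (adjusted p = 0.0446) or 3 (adjusted p = 0.0247) and by DESeq2 (adjusted p = 0.0389).

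Ordered by level per kb, MAFG came first in all 5 groups. In U937 with prexasertib it averaged 46.9 ± 10.0 CPM per kb, followed by MAFF at 20.7 ± 4.85, BACH1 at 17.7 ± 3.76, MAFK at 13.8 ± 1.58 and NFE2 at 8.31 ± 0.984. The libraries of MAFF, BACH1 and MAFK overlapped, so their order there is not firm. In U937 with diluent MAFG averaged 27.8 ± 0.728, BACH1 11.9 ± 0.851, MAFK 11.4 ± 2.08 and NFE2 11.2 ± 0.753, the last 3 overlapping, and MAFF 2.43 ± 0.997 CPM per kb. MAFF was thus the fifth transcript with diluent and with the combination, and the second with prexasertib (the fourth with exon-union lengths). In ML1 with prexasertib MAFG averaged 118 ± 11.8, MAFK 34.3 ± 5.90, MAFF 24.9 ± 1.30, BACH1 18.7 ± 5.96 and NFE2 2.19 ± 0.892 CPM per kb, with MAFF and BACH1 overlapping. In ML1 with diluent MAFG averaged 73.3 ± 8.94, MAFK 18.1 ± 0.882, NFE2 11.8 ± 2.92, BACH1 8.75 ± 0.691 and MAFF 1.56 ± 0.242 CPM per kb, with NFE2 and BACH1 overlapping. BACH2 and MAF were at most 0.466 CPM per kb in any library.

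Among the related factors called higher with prexasertib were NFE2L2 in U937, and NFE2L1, NFE2L2 and NFE2L3 in ML1. NFE2L2, which encodes NRF2, averaged 207 ± 34.6 CPM in U937 with prexasertib and 111 ± 5.67 CPM with diluent (0.90 ± 0.14, adjusted p = 0.000225), and 215 ± 32.5 CPM in ML1 with prexasertib and 107 ± 11.4 CPM with diluent (1.01 ± 0.14, adjusted p = 1.11e-05). Per kb, the ratio of BACH1 to NFE2L2 was 0.243 ± 0.0133 in U937 with prexasertib and 0.306 ± 0.0207 with diluent. In ML1 it was 0.244 ± 0.0389 with prexasertib and 0.236 ± 0.0272 with diluent. These ratios depend on the assumed length and were not tested. With the union of exons they averaged 0.381 in U937 with prexasertib and 0.48 with diluent. The ML1 averages were then 0.382 with prexasertib and 0.369 with diluent. MAFA, a large MAF of pancreatic beta cells, had 463 counts in ML1 with prexasertib and 6 with diluent. It had at most 6 counts in any U937 group. MAFA also had an adjusted p under 0.05 in ML1, but it passed the filter through its prexasertib counts there and is not counted.

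NFE2L3, another CNC factor, averaged 93.0 ± 11.7 CPM in ML1 with prexasertib and 15.4 ± 0.937 CPM with diluent (2.60 ± 0.12, adjusted p = 3.71e-11). In U937 it averaged 36.1 ± 2.36 CPM with prexasertib and 39.1 ± 3.87 CPM with diluent (-0.11 ± 0.12, adjusted p = 0.484), and the difference of the effects was 2.71 ± 0.17 (adjusted p = 4.37e-09). NFE2 held 1.31 ± 0.609% of the summed per-kb level of the 6 CNC and BACH transcripts in ML1 with prexasertib and 12.7 ± 3.39% with diluent. In U937 its share was 11.1 ± 2.37% with the combination, 6.03 ± 1.35% with prexasertib and 11 ± 0.518% with diluent. Relative to prexasertib, the related genes lowered by the combination included NFE2L2 (-0.94 ± 0.14, adjusted p = 0.000154), NFE2L1 (-0.37 ± 0.13, adjusted p = 0.0396) and NRL, a retinal large MAF (-0.76 ± 0.28, adjusted p = 0.0499). The calls of NFE2L1 and NRL each ended in at least 7 alternatives. KEAP1, the NRF2 regulator, was not called in the 3 comparisons (-0.33 ± 0.17 in ML1, adjusted p = 0.11), but its ML1 value passed in 2 alternatives, one of them without ML1 prexasertib replicate 2 (adjusted p = 0.0373).

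Genes known to carry elements for NRF2 and BACH1 with small MAFs were mostly higher in ML1, while in U937 the shares called were near those of all genes. Of 21 such genes, 16 were called higher and 1 lower with prexasertib in ML1, against 25.3% and 23.5% of all tested genes, with a median log2 fold change of 0.96. In U937 4 were called higher and 4 lower, where all tested genes gave 18.3% and 12.8%, with a median of -0.06, and the combination lowered 5 and raised none relative to prexasertib, against 17.1% and 11.9% of all tested genes (median -0.14). Summed over the 21 genes, levels ran from 11500 to 15500 CPM in ML1 with prexasertib and from 4530 to 5170 CPM with diluent. In U937 they ran from 4620 to 5500 CPM with the combination, 5730 to 6750 CPM with prexasertib and 6150 to 6670 CPM with diluent. The count of 4 called lower in U937 was 0 without prexasertib replicate 2, 1 without diluent replicate 3, 2 without prexasertib replicate 1 or diluent replicate 2, and 1 in a fit to the groups compared. The count of 5 lowered by the combination was 9 with the replicate number as a block, and 3 without prexasertib replicate 2 or without combination replicate 1 or 3.

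**Figure D4:**
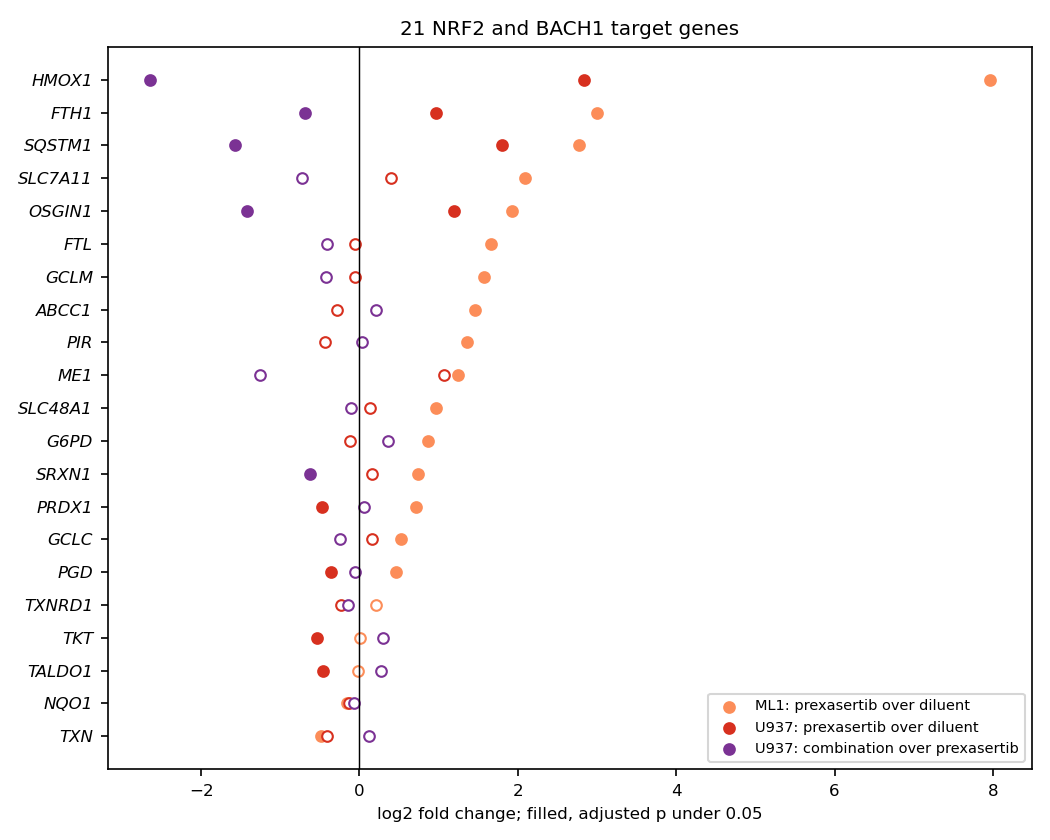
Log2 fold changes of 21 NRF2 and BACH1 target genes (rows, ordered by the ML1 value) in 3 comparisons, filled where the adjusted p from edgeR was under 0.05. In ML1, 16 genes are filled to the right of 0 and 1, TXN, to the left; in U937, 4 are filled on each side for prexasertib over diluent.

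FTH1, the ferritin heavy chain, averaged 3040 ± 741 CPM in ML1 with prexasertib and 381 ± 30.2 CPM with diluent (3.00 ± 0.23, adjusted p = 9.98e-09). In U937 it averaged 469 ± 174 CPM with prexasertib and 241 ± 11.9 CPM with diluent (0.96 ± 0.22, adjusted p = 0.0035). SQSTM1, the autophagy receptor p62, averaged 1350 ± 23.9 CPM in ML1 with prexasertib and 198 ± 10.0 CPM with diluent (2.77 ± 0.21, adjusted p = 1.07e-08). In U937 SQSTM1 averaged 173 ± 49.1 CPM with the combination, 517 ± 167 CPM with prexasertib and 148 ± 24.0 CPM with diluent. It rose with prexasertib (1.80 ± 0.21, adjusted p = 1.26e-05) and was lower with the combination than with prexasertib (-1.58 ± 0.20, adjusted p = 4.95e-05), as was OSGIN1, an oxidative stress-induced growth inhibitor (-1.43 ± 0.28, adjusted p = 0.00142). TXN, thioredoxin, was the gene called lower in ML1 (-0.48 ± 0.17, adjusted p = 0.0232). TKT, transketolase, and PRDX1, a peroxiredoxin, fell in U937 (-0.53 ± 0.15, adjusted p = 0.0129, and -0.48 ± 0.15, adjusted p = 0.0236). The TXN call ended without ML1 diluent replicate 2 (adjusted p = 0.0809) or prexasertib replicate 1 (adjusted p = 0.11). Those of TKT and PRDX1 ended without U937 prexasertib replicate 2 (adjusted p = 0.0652 and 0.101), and that of PRDX1 also without U937 diluent replicate 3 (adjusted p = 0.0725) and in a fit to the groups compared (adjusted p = 0.0641).

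HMOX1, heme oxygenase and a target repressed by BACH1, is named after its values were seen. It averaged 106 ± 45.2 CPM in ML1 with prexasertib and 0.422 ± 0.391 CPM with diluent (7.96 ± 1.03, adjusted p = 3.89e-05). In U937 it ranged from 10.2 to 87.5 CPM with prexasertib and from 4.43 to 6.21 CPM with diluent (2.83 ± 0.78, adjusted p = 0.0175), but this call was lost when prexasertib replicate 2 was left out (1.11, adjusted p = 0.0755). It was also lost without diluent replicate 1 (adjusted p = 0.0571) or diluent replicate 2 (adjusted p = 0.0511), and in a fit to the groups compared (adjusted p = 0.102). In both lines BACH1 mRNA was higher in the group with the higher HMOX1 mRNA. BACH1 protein and heme were not measured.

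Among 9 genes known as targets of large MAFs or BACH2, 6 were tested, of which 5 were called higher with prexasertib in U937 and 3 in ML1, none lower in either, where 18.3% and 25.3% of all tested genes were called higher. With the combination relative to prexasertib 4 were called lower, where 17.1% of all were. CCR1, a chemokine receptor, averaged 12.9 ± 1.65 CPM in U937 with prexasertib and 6.54 ± 0.794 CPM with diluent (0.98 ± 0.14, adjusted p = 8.01e-05), and fell with the combination relative to prexasertib (-1.14 ± 0.14, adjusted p = 2.98e-05). In ML1 CCR1 averaged 55.7 ± 2.26 CPM with prexasertib and 12.7 ± 0.534 CPM with diluent (2.13 ± 0.14, adjusted p = 1.30e-09). PRDM1, which encodes BLIMP1 and is repressed by BACH2 in B cells, averaged 12.3 ± 3.54 CPM in U937 with prexasertib and 4.0 ± 0.504 CPM with diluent (1.62 ± 0.23, adjusted p = 9.39e-05). In ML1 PRDM1 averaged 36.5 ± 11.1 CPM with prexasertib and 1.88 ± 0.286 CPM with diluent (4.28 ± 0.26, adjusted p = 4.76e-10). With the combination it was lower than with prexasertib in U937 (-1.16 ± 0.23, adjusted p = 0.00117).

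Of 13 erythroid and megakaryocyte genes, among them targets of NFE2, 4 were tested. With prexasertib in U937, 2 were called higher and none lower, where 18.3% and 12.8% of all tested genes were. In ML1, TUBB1 was called higher and none lower, where 25.3% and 23.5% of all tested genes were. SLC4A1 also had an adjusted p under 0.05 in ML1, but it passed the filter through its U937 counts and is not counted there. TUBB1, a platelet tubulin that depends on NFE2 in mouse megakaryocytes, averaged 4.84 ± 0.474 CPM in ML1 with prexasertib and 3.27 ± 0.539 CPM with diluent (0.57 ± 0.22, adjusted p = 0.0452), a call that 6 alternatives ended. In U937 TUBB1 averaged 6.01 ± 1.36 CPM with prexasertib and 2.88 ± 0.477 CPM with diluent (1.06 ± 0.23, adjusted p = 0.00258). SLC4A1, the erythrocyte anion exchanger, had 153 counts over the U937 prexasertib libraries and 30 over the diluent ones, and 10 counts in ML1 with prexasertib and 0 in ML1 with diluent. Its U937 call ended without prexasertib replicate 2 (adjusted p = 0.077) or diluent replicate 2 (adjusted p = 0.0543), and its ML1 call without prexasertib replicate 1 (adjusted p = 0.0634) or in a fit to the groups compared (adjusted p = 0.0647). Its ML1 groups overlapped, as 1 prexasertib library had 0 counts. PF4 had no count in any group, and HBB none in ML1.

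Myeloid markers moved with prexasertib in ML1, where NFE2 fell and MAFK rose: 8 of 11 were called higher and 2 lower, against 25.3% and 23.5% of all tested genes. LYZ (lysozyme) averaged 3630 ± 733 CPM with prexasertib and 514 ± 121 CPM with diluent. CD68, a macrophage antigen, averaged 354 ± 29.4 CPM with prexasertib and 68.8 ± 2.67 CPM with diluent. ELANE, neutrophil elastase, averaged 1150 ± 244 CPM with prexasertib and 2650 ± 481 CPM with diluent. In U937, 2 of the 11 were called higher and 2 lower, shares near the 18.3% and 12.8% of all tested genes. The summed level of 5 non-blood markers ran from 225 to 306 CPM in ML1 with prexasertib and from 49.9 to 59.6 CPM with diluent. PECAM1, which myeloid cells also express, made up most of it, with 216 to 296 CPM with prexasertib and 44.6 to 55.2 CPM with diluent, and EPCAM was at 0 in every ML1 library. The summed level of 5 B cell markers ran from 11.4 to 27.9 CPM with prexasertib and from 6.40 to 7.35 CPM with diluent. The part of these shifts in the values of the MAF and BACH genes was not tested.

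Over the 15 libraries, levels of the members on the log2 CPM scale were compared with each other and with 10924 other genes of at least 5 CPM (10925 for BACH2). The 15 libraries share 5 groups, so these correlations describe group patterns and carry no p. MAFF and BACH1 correlated at 0.861 and MAFG and MAFK at 0.897, whereas MAFK and NFE2 correlated at -0.824. Closest to MAFF were SLC25A25 (0.982), MIDN (0.981) and TNFSF9 (0.978), and among the closest to BACH1 were MAP3K2 (0.971) and RFX3 (0.969). MAFG was closest to WIPF2 (0.992), YY1AP1 (0.990) and BTN2A1 (0.987), and MAFK to PLEKHA4 (0.970), IKBKG (0.968) and CCDC97 (0.964). BACH2 was closest to SDC4 (0.994), PLIN2 (0.993) and NOV (0.993), and NFE2 to TMEM97 (0.972), EPHB4 (0.971) and TCFL5 (0.967). For BACH2, the 6 ML1 libraries among the 15 points had 0 to 2 counts each.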

How the data were processed

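RNA-seq was measured in 15 libraries of U937 and ML1, in 5 groups of 3. The deposited values were read counts per gene symbol, not normalized by the authors. Per the submitters' processing notes, TopHat2 2.0.14, Bowtie2 2.2.6 and featureCounts 1.4.6 (Subread) were used with hg38. For the annotation and the strand setting, the sources used here give nothing. The kit was, per the labels, the unstranded TruSeq RNA Library Prep Kit v2.

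The counts were tested with edgeR 4.0.16 in R 4.3.3 (filterByExpr by group, TMM, 1 mean per group over all 15 libraries, robust quasi-likelihood F test, 10 residual degrees of freedom). P-values were adjusted by Benjamini-Hochberg over 17243 genes in each of 6 comparisons, with calls at an adjusted p under 0.05. CPM are TMM-scaled, and levels per kb use the longest coding transcript of GENCODE v29. Totals were 49011222 to 87301014 counts. Floors of 3 counts over a group allow for counting error alone, as there were no molecular identifiers.

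The members and the gene lists (78 genes, 77 in the file) were chosen with earlier results of these data known. Always named were the members and a list of related genes. Of the target and erythroid lists, up to 2 genes each way with the smallest p were named per comparison with prexasertib, with HMOX1, PECAM1 and the myeloid examples added after their values were seen. For likeness, the 3 genes with the highest Pearson r were named. Some genes that met these rules are not reported here. The pipeline was tested on simulated data. Alternatives were DESeq2 1.42.0, 2 other scalings, 2 other filters, fits to the groups compared, a replicate block, and leaving out each library. Same-numbered libraries of the combination and prexasertib groups deviated together (correlations 0.409, 0.37 and 0.384, all over 0.1), so the numbers pair these 2 groups; the evidence is from the data, as the labels say nothing of it.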

Additional observations from a re-analysis of the deposited data

Results flagged for a closer look

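The prexasertib effect on NFE2 and MAFK differed between the lines by the test of the difference itself (edgeR's quasi-likelihood test, Benjamini-Hochberg adjusted). For NFE2 the ML1 effect minus the U937 effect was -2.0 on the log2 scale (adjusted p = 0.000431), with the ML1 effect at -2.44 and the U937 effect at -0.44. For MAFK it was 0.639 (adjusted p = 0.0377), with 0.92 in ML1 and 0.28 in U937; this call held in 10 of 19 alternatives and ended in 9, with adjusted p-values up to 0.107. All 3 prexasertib libraries lay below all diluent libraries for NFE2 in both lines.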

How the results depend on the processing

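Of 456 recomputed fold changes of single members, 415 kept their direction and their side of the threshold, 22 lost a call, 13 gained one and 6 changed sign. The calls of MAFF and MAFG with prexasertib in each line and with the combination relative to prexasertib held under every alternative run, as did those of NFE2, MAFK and BACH1 in ML1. The number of members called higher with diluent in U937 relative to ML1, here with BACH2 included, was 2. It was 0 with the stricter filter, which drops BACH2, 1 with upper-quartile factors and 1 to 3 when libraries were left out. The number called higher in the difference between lines (1) was 2 in the fit to the groups compared, 2 with the replicate block, 0 with upper-quartile factors and 0 to 2 when libraries were left out. In the combination against diluent (0 higher) it was 2 with the block (MAFF 0.588, adjusted p = 0.0142, and MAFK 0.301, adjusted p = 0.0485) and 0 to 1 when libraries were left out. In U937 with prexasertib (4 higher, 0 lower) it was 2 to 4 higher when libraries were left out, and 1 lower with the block (NFE2, -0.449, adjusted p = 0.0178). The block also gave a call to MAFK with prexasertib in U937 (0.289, adjusted p = 0.0372), to MAFF with diluent between lines (0.595, adjusted p = 0.00424) and in the difference between lines (0.882, adjusted p = 0.00517), and to KEAP1 in ML1 (-0.349, adjusted p = 0.01). Signs changed only in uncalled values when libraries were left out: BACH2, combination against diluent, -0.298 to 0.167; MAFG, difference between lines, -0.173 to 0.146; MAFK, combination against prexasertib, -0.0665 to 0.124; and NFE2 with diluent between lines, -0.258 to 0.0824. The causes were not tested. In the combination against prexasertib the block changed no member call, while all genes called higher numbered 3239 in place of 2048 and NRF2 and BACH1 targets called lower 9 in place of 5. Upper-quartile factors moved the median of all genes to 0.106 in the combination against diluent. Depth limits BACH2 in ML1 and MAF everywhere.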
